A study of Mus musculus with 30 samples.

Results

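Gene expression was compared between Nr6a1-/- and wildtype cells at day 4 (d4) of differentiation towards neuromesodermal progenitors (NMPs), without the growth factor Gdf11. The comparison rests on 6 of the 30 RNAseq libraries of the series, the 3 labelled d4 wildtype and the 3 labelled d4 Nr6a1-/-, and was made across 12149 genes, those of 54134 rows that passed a filter on low counts. Both genotypes belong to Bruce4, a mouse embryonic stem cell (ESC) line. Wildtype cells are the unedited line, and Nr6a1-/- cells are 1 CRISPR/Cas9 clone with a deletion in exon 4 of each allele, so that genotype and clone cannot be told apart. All cells were grown in FGF2 from the start, and CHIR99021, a small molecule that activates Wnt signalling, was added at d2 and kept to d4. The other libraries hold both genotypes at d2, d2.5 and d3, and at d4 after Gdf11 (d4G). They entered the filter on low counts and the estimate of the spread, and are otherwise used here only where named. No label says that replicates came from separate cultures, so p-values measure a spread between libraries that may be technical. This spread was estimated within groups over all 30 libraries, not from the 6 alone.

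NMPs are bipotent cells of the caudal embryo that supply both the spinal cord and the presomitic mesoderm, the tissue that is cut into somites. They are maintained by Wnt and FGF signals, mark themselves by co-expression of T and Sox2, and open the Hox clusters in order from anterior to posterior genes as the trunk extends. Retinoic acid from the somites opposes Wnt and FGF in the tailbud and favours differentiation. Nr6a1 is an orphan nuclear receptor, known as a repressor of pluripotency genes and as a gene required for normal trunk development.

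The d4 libraries held 2101598 to 3688197 counts each, a depth at which a count of 0 allowed 0.823 to 1.44 CPM, counting error only. CPM are counts scaled to the size of the library, here after TMM factors. Wildtype replicate 2 carried transcripts of an earlier stage. The 30 genes with at least 20 CPM in d2 wildtype cells that fell more than 8-fold in wildtype cells from d2 to d3 (19.6% of all genes tested were called higher and 17.8% lower over that step) summed to 240.2, 1338 and 261 CPM in d4 wildtype replicates 1, 2 and 3. They summed to 314, 264 and 277 CPM in the Nr6a1-/- libraries, and to 5189 to 5455 CPM in d2 wildtype cells. Counts of genes and of list members are therefore given with and without this library where they differ. Nr6a1-/- replicate 1 also stood apart, with a mean squared deviation from its group of 0.0515 on the log2 scale against 0.0286 to 0.0347 in the other 5. Chromosome 8 held 4.88 to 5.03% of the counts of wildtype libraries and 3.76 to 3.87% of those of Nr6a1-/- libraries, so genes on it are marked as such. The part that any of these differences plays in the results below was not tested. In bulk RNA, fewer cells of a type and less RNA per cell cannot be told apart.

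In total 2294 genes, 18.9% of those tested, were called different between the genotypes at d4 (edgeR quasi-likelihood test, FDR below 0.05). Of these, 1179 (9.70% of all genes) were higher and 1115 (9.18%) lower in Nr6a1-/- cells, and 379 and 417 of them differed more than 2-fold. Without wildtype replicate 2, 1811 genes were called (15.1%), 892 higher (7.41%) and 919 lower (7.64%). The counts of called list members below are to be set against these shares of all genes, 9.70% higher and 9.18% lower in the fit of all libraries. The same call was made in both fits for 800 of the 1179 higher and 859 of the 1115 lower genes. Leaving out Nr6a1-/- replicate 3 lowered the number to 1487, and leaving out Nr6a1-/- replicate 1 raised it to 2625. All 3 libraries of one genotype lay beyond all 3 of the other for 3553 of the 12149 genes tested (29.2%). Among them were 1051 of the 1179 higher and 970 of the 1115 lower genes. The calls were made on the same libraries, so this is no separate support for them. In the text that follows a gene is called higher or lower when it passed the test in the fit of all libraries, log2 fold changes are Nr6a1-/- over wildtype, values in libraries are given for replicates 1, 2 and 3 in turn, and a call that was lost when 1 of the 6 libraries was left out is named as such.

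The largest rises among genes of at least 20 CPM in 1 genotype, called in 3 fits and without overlap, were mostly in genes at low levels in wildtype cells. Meox1 (chromosome 11, 101877510 to 101894374, minus strand of GRCm38), a transcription factor of forming somites, stood at 5.23, 3.32 and 3.602 CPM in the wildtype and 226, 169 and 209 CPM in the Nr6a1-/- libraries (log2 fold change 5.67, SE 0.21, FDR = 3.60e-20). Aldh1a2 (chromosome 9, 71215789 to 71296243, plus strand), the enzyme that makes retinoic acid in the mesoderm, measured 11.8, 11.3 and 12.9 CPM in the wildtype and 369, 386 and 373 CPM in the Nr6a1-/- libraries (4.96, SE 0.17, FDR = 1.22e-22). Neither gene had overlapping libraries, as the rule requires, and the replicates of Aldh1a2 were tight in both genotypes. For Wnt7a, a Wnt ligand, there were 3 counts over the wildtype libraries and 141 over the Nr6a1-/- libraries, at 14.7, 20.3 and 27.7 CPM (5.81, FDR = 4.43e-11). Hoxb13, the last gene of its cluster, measured 19.1, 27.1 and 18.7 CPM in Nr6a1-/- libraries and at most 0.872 CPM in wildtype libraries (4.94). Fabp7, a fatty acid binding protein of neural progenitors, also lay apart, at 2.62, 4.14 and 6.004 CPM in the wildtype and 108, 81.3 and 63.5 CPM in the Nr6a1-/- libraries (4.24).

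A channel, an adhesion molecule and a peptide ligand were also among the largest rises. The potassium channel Kcna2 measured 0.436, 1.11 and 1.501 CPM in the wildtype and 21.2, 36.8 and 35.4 CPM in the Nr6a1-/- libraries (4.78). It was low in every wildtype library. Apln, the peptide ligand of the apelin receptor, stood at 22.1, 23.2 and 40.05 CPM in Nr6a1-/- cells and at 0.872, 1.93 and 2.702 CPM in wildtype cells (3.85). Ntm, an adhesion molecule of neurons, measured 2.62, 0.829 and 1.501 CPM in the wildtype and 25.1, 17.4 and 23.01 CPM in the Nr6a1-/- libraries (3.80). Egln3, an oxygen-sensing hydroxylase that hypoxia itself induces, measured 2.18, 6.08 and 2.702 CPM in the wildtype and 42.5, 51.3 and 49.4 CPM in the Nr6a1-/- libraries (3.61). Bcl11b, a zinc finger transcription factor, differed between wildtype libraries, its 0.872, 4.14 and 0 CPM being highest in replicate 2, but all lay below the 20.4, 26.1 and 20.02 CPM of Nr6a1-/- libraries (3.56).

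By the same rule, the largest falls were in 12 genes of varied roles. Car4, a membrane-bound carbonic anhydrase, stood at 97.2, 101.1 and 89.2 CPM in the wildtype and 1.299, 2.42 and 0.426 CPM in the Nr6a1-/- libraries (log2 fold change -6.11, SE 0.23, FDR = 3.11e-21). The imprinted RNA H19 (chromosome 7, 142575529 to 142578143, minus strand) measured 114, 102 and 114 CPM in the wildtype and 1.73, 0.968 and 2.13 CPM in the Nr6a1-/- libraries (-6.02, SE 0.22, FDR = 1.44e-21). Both were all but lost. Spink1, a protease inhibitor of the gut, measured 102, 58.6 and 97.6 CPM in the wildtype and 3.03, 0.968 and 0.426 CPM in the Nr6a1-/- libraries (-5.79). Dpp4, a membrane peptidase, measured 37.9, 37.02 and 34.5 CPM in the wildtype and 0.866, 0.484 and 1.28 CPM in the Nr6a1-/- libraries (-5.27). Sox17, the transcription factor that specifies definitive endoderm, measured 32.7, 26.2 and 33.3 CPM in the wildtype and 3.03, 5.32 and 0.852 CPM in the Nr6a1-/- libraries (-3.34). These genes were apart in every library, as the rule requires, although the wildtype value of Spink1 was lowest in replicate 2.

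S100g, a calcium-binding protein of the intestine, varied among the Nr6a1-/- libraries, at 7.797, 23.2 and 2.13 CPM against 212, 149 and 208 CPM in wildtype libraries (-4.14). The gut peroxidase Gpx2 stood at 50.6, 41.7 and 49.5 CPM in the wildtype and 3.898, 1.45 and 1.28 CPM in the Nr6a1-/- libraries (-4.37). The endocytic adaptor Dab2 stood at 40.5, 36.5 and 34.2 CPM in the wildtype and 3.03, 3.39 and 4.69 CPM in the Nr6a1-/- libraries (-3.29). Sema3a, a secreted guidance cue, measured 33.6, 33.4 and 29.7 CPM in the wildtype and 3.03, 2.42 and 2.13 CPM in the Nr6a1-/- libraries (-3.64). The lysosomal protease Ctsh (-3.08), the sphingomyelinase Smpd3 on chromosome 8 (-3.11) and Atp1b1, the beta subunit of the sodium pump (-3.05), were the others of the 12.

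**Figure D1:**
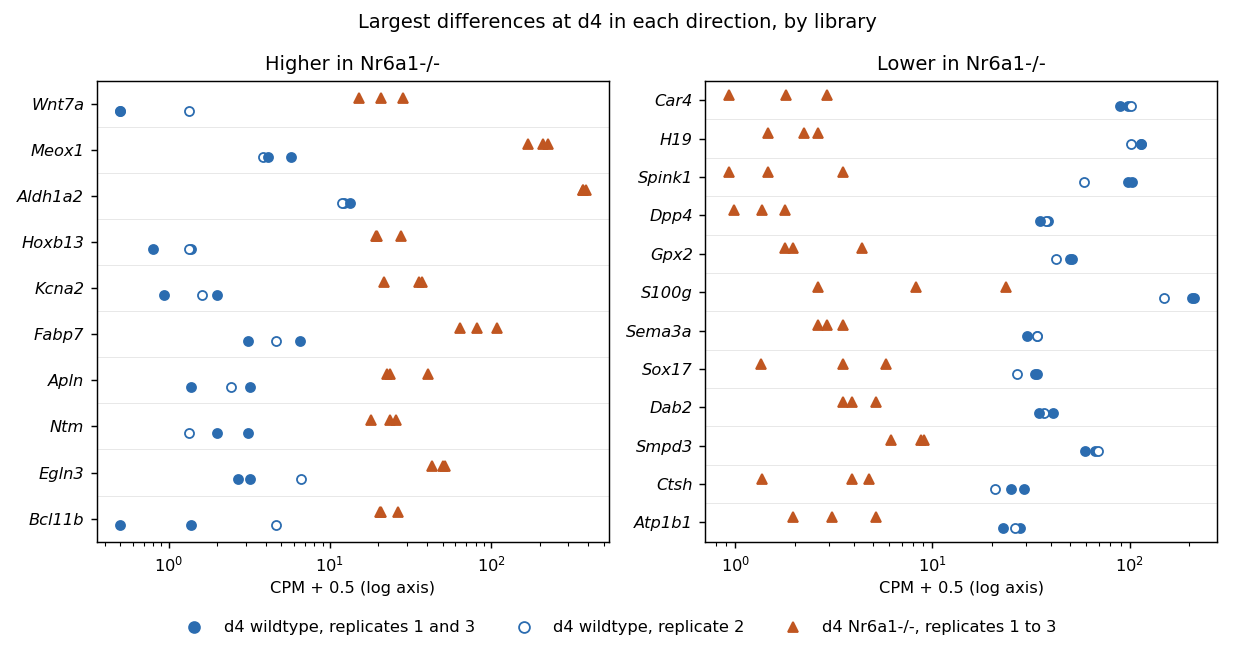
CPM at d4 in each library, on a log axis after adding 0.5, for genes with the largest log2 fold changes among those that met the naming rule, 10 higher and 12 lower. Circles are wildtype libraries (open, replicate 2) and triangles Nr6a1-/- libraries. The rule admits only genes in which the genotypes do not overlap, and the open circle lies with the other wildtype libraries in most rows.

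Among abundant genes the differences were smaller. Ccnd2, a D-type cyclin, stood at 991, 906 and 1250 CPM in the wildtype and 2512, 2275 and 2247 CPM in the Nr6a1-/- libraries (1.16, FDR = 2.15e-09). Marcks, a substrate of protein kinase C at the membrane, rose by 1.26 and the phosphatase Lhpp by 1.25 on the log2 scale. Gpc3, a heparan sulphate proteoglycan that tunes growth signals, measured 400.2, 399.8 and 773 CPM in the wildtype and 1260, 905 and 1099 CPM in the Nr6a1-/- libraries (1.05), with wildtype replicate 3 above the other two. The mitochondrial ADP/ATP carrier Slc25a4 measured 1632, 1387 and 1629 CPM in the wildtype and 763, 717 and 689 CPM in the Nr6a1-/- libraries (-1.10). The metallothionein Mt1, which binds zinc and copper, measured 853, 878 and 721 CPM in the wildtype and 238, 169 and 167 CPM in the Nr6a1-/- libraries (-2.09). Mt2 differed by -2.12. All 3 lie on chromosome 8. Cd63, a tetraspanin of late endosomes, on chromosome 10, measured 987, 860.1 and 1026 CPM in the wildtype and 471, 464 and 408 CPM in the Nr6a1-/- libraries (-1.10).

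Nr6a1 itself was higher in Nr6a1-/- cells, at 96.8, 99.5 and 96.7 CPM in the wildtype and 189, 224 and 255 CPM in the Nr6a1-/- libraries (1.19, FDR = 2.27e-10). The libraries read the 3′ end of transcripts, so this value does not check the deletions in exon 4. The nuclear receptor binds an extended half-site, the letters TCAAGGTCA. These letters were searched on both strands of RefSeq promoter windows (GRCm38.p6, 250 bases before to 50 after each start), which were found for 8800 of the genes tested. They were present in 4 of 888 higher genes (0.45%), 0 of 793 lower genes and 19 of 7119 genes not called (0.267%). Counted by single window and not by gene, the share was 0.423% of all 32851 windows. The 4 higher genes are Efemp2, a matrix protein (1.75), Inpp4a, an inositol phosphatase (1.61), Msrb2, a methionine sulphoxide reductase (0.86, a call lost without wildtype replicate 3 or Nr6a1-/- replicate 3), and Psap, the precursor of the saposins (0.69). They were singled out for the letters, not by the naming rule, and their sites are shown 5′ to 3′ on the gene's strand, with the half-site, or its reverse complement, in capitals.
Efemp2, chr19:5474464-5474492, plus strand: gggccaagcaTCAAGGTCAgtggcctaag
Inpp4a, chr1:37369122-37369150, plus strand: gaatgagtgtTCAAGGTCAccaggcagag
Msrb2, chr2:19371507-19371535, plus strand: tccgcgaagaTCAAGGTCAagaggagcaa
Psap, chr10:60277469-60277497, plus strand: gttcggcgccTGACCTTGAtttaatcacc
These matches are descriptions of the letters in the windows and not measurements of binding.

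Genes of the NMP and tailbud list moved in both directions. Of 21 genes tested, 11 were higher and 6 lower, with a median log2 fold change of 0.59 against 0.018 over all genes tested. Without wildtype replicate 2, 10 were higher and 6 lower, and without Nr6a1-/- replicate 1 the median was 0.36. T (Brachyury), which marks NMPs and early mesoderm, stood at 90.2, 74.3 and 86.5 CPM in the wildtype and 132, 111 and 159.8 CPM in the Nr6a1-/- libraries (0.69, FDR = 6.15e-06). Sox2, the neural partner of T in these cells, measured 42.7, 60.2 and 38.7 CPM in the wildtype and 33.4, 38.2 and 46.01 CPM in the Nr6a1-/- libraries (-0.28, FDR = 0.219), and the genotypes overlapped. Nkx1-2, a homeobox gene of the caudal lateral epiblast, measured 23.5, 16.9 and 19.8 CPM in the wildtype and 89.2, 93.4 and 141 CPM in the Nr6a1-/- libraries (2.45). Wnt8a rose from 0.872, 0.553 and 0.6004 to 17.8, 13.1 and 16.2 CPM (4.49) and Wnt3a from 5.67, 4.14 and 7.505 to 32.1, 31.4 and 32.8 CPM (2.47), both ligands of the caudal end. Of the caudal-type homeobox genes, Cdx1 was higher at 177, 145 and 159 CPM in the wildtype and 312, 369 and 348 CPM in the Nr6a1-/- libraries (1.10). Cdx4 was lower at 131, 128 and 129.7 CPM in the wildtype and 55.9, 49.8 and 48.1 CPM in the Nr6a1-/- libraries (-1.33). Cdx2 at 88.5, 92.8 and 107 CPM in the wildtype and 84.03, 89.98 and 97.6 CPM in the Nr6a1-/- libraries was not called (-0.092, FDR = 0.637). The 3 Cdx genes thus took 3 different courses. Epha5, a receptor of ephrins, fell by 1.94 on the log2 scale (61.9, 57.7 and 51.9 CPM in the wildtype and 9.096, 14.5 and 20.9 CPM in the Nr6a1-/- libraries), and the RNA-binding protein gene Grsf1 rose by 1.38. Transcripts of Gdf11, the ligand that ends trunk formation, stood at 179.6, 208 and 313 CPM in the wildtype and 86.2, 63.9 and 63.5 CPM in the Nr6a1-/- libraries (-1.72).

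Genes of presomitic and paraxial mesoderm were mostly higher. Of 16 tested, 11 were higher and 2 lower (median 0.90), and 8 and 2 without wildtype replicate 2. Tbx6, which commits NMPs to paraxial mesoderm, stood at 94.2, 88.97 and 104 CPM in the wildtype and 179.8, 211 and 181 CPM in the Nr6a1-/- libraries (0.99, SE 0.11, FDR = 1.87e-08). Dll1 (134, 105 and 135 CPM in the wildtype and 193, 220.1 and 241 CPM in the Nr6a1-/- libraries, 0.81) and Hes7 (0.50, a call lost without wildtype replicate 2, FDR = 0.0515) serve the Notch-driven clock that times segmentation. Mesp1, a factor of cells about to form a somite, was counted 3 times in wildtype and 66 times in Nr6a1-/- libraries, which is a 30.3-fold difference (95% counting interval 9.91 to 150). Tcf15, which makes somites epithelial, measured 0.872, 5.25 and 1.801 CPM in the wildtype and 16.5, 5.81 and 8.095 CPM in the Nr6a1-/- libraries (1.80). The 2 lower genes were Pax3 and Cited1. Pax3, a factor of the dorsal neural tube and dermomyotome, stood at 13.1, 6.63 and 8.11 CPM in the wildtype and 0.866, 0.484 and 0.426 CPM in the Nr6a1-/- libraries (-3.80). The coactivator Cited1 stood at 679.6, 555 and 665 CPM in the wildtype and 399, 387 and 323 CPM in the Nr6a1-/- libraries (-0.78). Foxc1 (0.36, FDR = 0.211) and Pdgfra (-0.38, FDR = 0.305), 2 further genes of paraxial mesoderm, were not called.

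The neural progenitor list was split. Of 20 genes tested, 6 were higher and 6 lower (median -0.38), and without wildtype replicate 2 the numbers were 6 and 3 (median -0.049). The median was also near 0 without Nr6a1-/- replicate 1 (-0.049). In the fit of the 6 d4 libraries alone 13 of these genes passed the filter on low counts. Of those, 6 were higher and 3 lower, and the median was above 0 (0.48). Nes (nestin), an intermediate filament of neural stem cells, measured 30.95, 54.98 and 32.1 CPM in the wildtype and 239.97, 181 and 222 CPM in the Nr6a1-/- libraries (2.42). The adhesion molecule Ncam1 measured 221, 249 and 418 CPM in the wildtype and 709.5, 595 and 726 CPM in the Nr6a1-/- libraries (1.19). Among the lower genes, Zic1 measured 21.4, 16.6 and 15.6 CPM in the wildtype and 2.599, 3.87 and 4.26 CPM in the Nr6a1-/- libraries (-2.29), while Zic2 was not called (0.037, FDR = 0.953). Irx3 at 16.6, 12.7 and 12.01 CPM in the wildtype and 0.433, 1.45 and 0.852 CPM in the Nr6a1-/- libraries (-3.85) and Irx5 (-3.14) are neighbours on chromosome 8 that pattern the neural tube. The POU factor Pou3f1 measured 3.05, 83.2 and 2.101 CPM in wildtype libraries, replicate 2 holding most of it, and its call (-3.72) was lost without that library (FDR = 0.953). Pax6, a factor of the established neural tube, measured 3.49, 4.97 and 2.101 CPM in the wildtype and 1.299, 1.94 and 2.56 CPM in the Nr6a1-/- libraries and was not called (FDR = 0.166). Of 13 genes of neuronal differentiation, 1 was higher and 6 were lower (median -0.040). Without wildtype replicate 2 the numbers were 2 and 3 and the median was above 0 (0.168). Without Nr6a1-/- replicate 3 they were 1 and 3 (median -0.165). Those lower included the neurofilament gene Nefl (31.8, 28.2 and 20.7 CPM in the wildtype and 8.66, 9.19 and 8.095 CPM in the Nr6a1-/- libraries, -1.62) and Gap43, a protein of growth cones (-0.75).

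**Figure D2:**
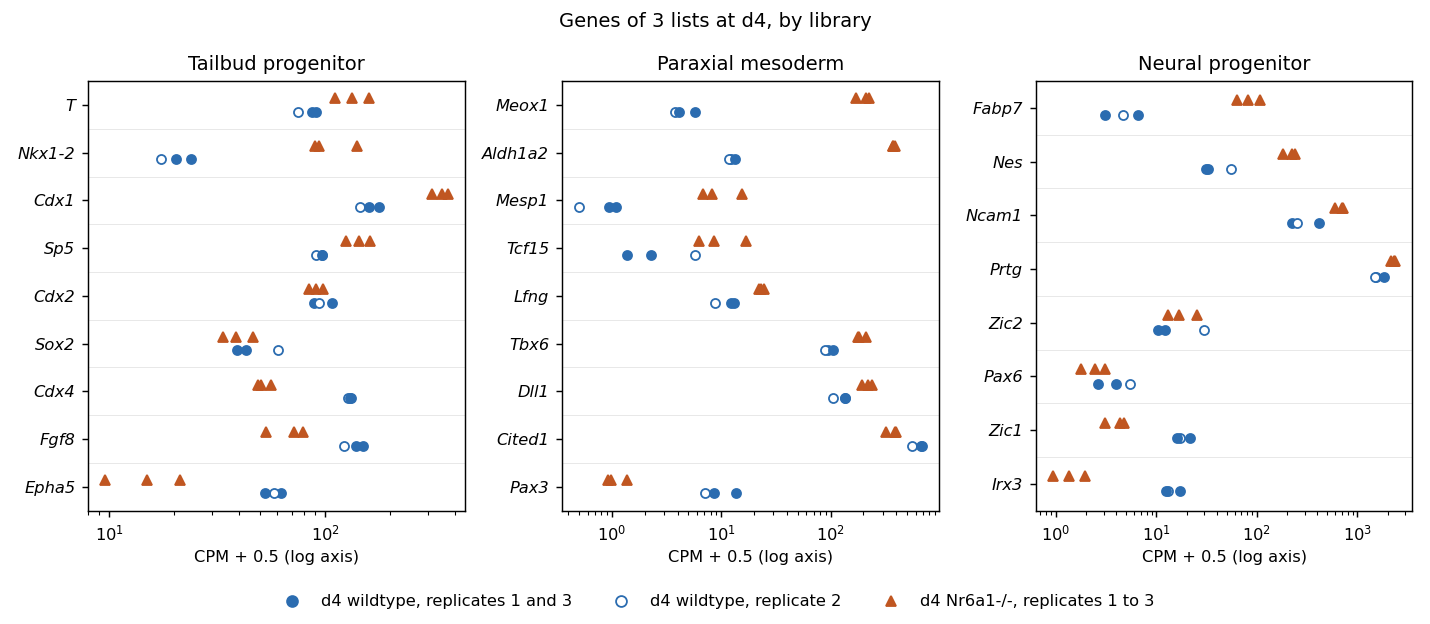
CPM at d4 in each library, on a log axis after adding 0.5, for 9 genes each of the tailbud and paraxial mesoderm lists and 8 of the neural progenitor list. Circles are wildtype libraries (open, replicate 2) and triangles Nr6a1-/- libraries; Meox1, Aldh1a2 and Fabp7 lie far to the right in Nr6a1-/- cells, Epha5, Pax3, Zic1 and Irx3 to the left, and Cdx2, Sox2 and Zic2 overlap.

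Genes of lateral and intermediate mesoderm and of endoderm were mostly lower. Of 10 genes of lateral and intermediate mesoderm, 7 were lower and 1 higher (median -2.13), and 6 and 1 without wildtype replicate 2. The homeobox genes Msx1, a target of BMP signals (48.4, 43.4 and 58.8 CPM in the wildtype and 9.96, 10.2 and 11.5 CPM in the Nr6a1-/- libraries, -2.24), and Pitx1, a gene of the hindlimb field (10.5, 14.9 and 10.5 CPM in the wildtype and 0.433, 0.968 and 1.704 CPM in the Nr6a1-/- libraries, -3.48), lay apart in all libraries. Lhx1, a homeobox gene of intermediate mesoderm that also marks interneurons, was the higher gene (3.92, 5.802 and 6.004 CPM in the wildtype and 18.2, 12.1 and 14.5 CPM in the Nr6a1-/- libraries, 1.47). Markers of definitive endoderm and gut were lower for 11 of 13 tested (median -2.19), 10 without wildtype replicate 2, and none was higher in either fit. Their summed level was 191 to 248 CPM in wildtype and 24.3 to 37.7 CPM in Nr6a1-/- libraries. Ttr, a carrier protein of liver and yolk sac, had 75 counts over the wildtype libraries and 0 over the Nr6a1-/- libraries, at least 18.2-fold lower when 3 counts over the group are allowed. Foxa2, the pioneer factor of endoderm and notochord, had 60 and 3 counts, a ratio of 14.5 (95% counting interval 4.74 to 72.5).

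In the other marker lists, apart from that of pluripotency and epiblast given next, at most 3 genes each were called in 1 direction. Of the 6 notochord and node genes tested 3 were lower and T was higher. Of 7 haemato-endothelial markers 3 were lower (2 without wildtype replicate 2), led by the VEGF receptor Flt1 (12.6, 13.8 and 15.9 CPM in the wildtype and 0.433, 1.45 and 0.852 CPM in the Nr6a1-/- libraries, -3.92), and the summed level was 180.5 to 253 CPM in wildtype and 152 to 207 CPM in Nr6a1-/- libraries, ranges that overlap. Of 8 fibroblast markers 1 was higher and 1 lower, and of 7 neural crest markers Sox9 was higher (0.83, a call lost without wildtype replicate 1 or 2 or Nr6a1-/- replicate 1 or 3) and Pax3 lower. Of 7 trophectoderm and extraembryonic markers 3 were lower, which were the X-linked homeobox genes Rhox5 (169, 165 and 184 CPM in the wildtype and 39.4, 42.6 and 24.3 CPM in the Nr6a1-/- libraries, -2.29) and Rhox6 (-2.93) and the imprinted gene Phlda2 (-0.73). The defining marker Elf5 had 1 count over the wildtype and 0 over the Nr6a1-/- libraries.

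Pluripotency and epiblast markers depended mostly on wildtype replicate 2. Of 19 tested, 14 were lower and 0 higher (median -1.39), but 4 were lower without wildtype replicate 2 (median -0.79) and 9 without Nr6a1-/- replicate 2 or 3, and the summed level of 1085 CPM in that library stood against at least 246 CPM in the other wildtype and 183 to 208 CPM in the Nr6a1-/- libraries. Utf1, a chromatin factor of pluripotent cells, measured 17.4, 100.3 and 7.805 CPM in the wildtype and 9.53, 6.77 and 5.11 CPM in the Nr6a1-/- libraries (-2.62), and the call was lost without that library (-0.75, FDR = 0.0551). Dppa4 at 18.3, 33.7 and 17.4 CPM in the wildtype and 6.06, 5.81 and 5.54 CPM in the Nr6a1-/- libraries (-2.02) and Dppa5a at 77.2, 66.9 and 59.1 CPM in the wildtype and 41.2, 25.2 and 29.8 CPM in the Nr6a1-/- libraries (-1.06), both genes of pluripotent cells, were lower also without it (-1.62, FDR = 2.15e-07, and -1.08, FDR = 2.48e-06). Likewise, of the 30 transcripts of d2 cells 14 were called lower and 1 higher, and 2 of the 14 kept the call without wildtype replicate 2, where the median moved from -1.39 to -0.12.

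**Figure D3:**
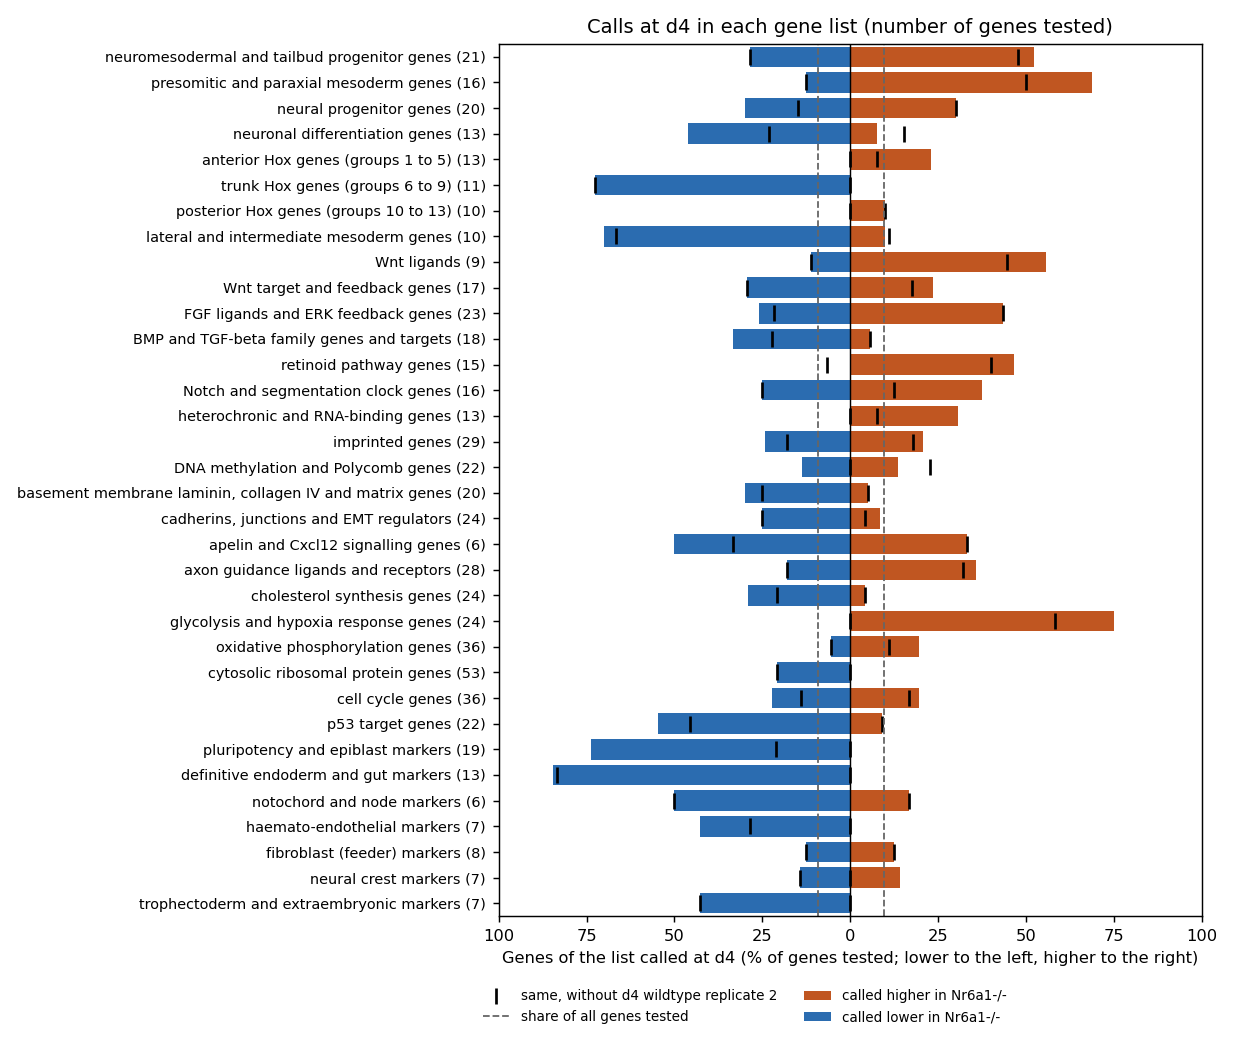
Share of the genes tested in each gene list that was called higher (right) or lower (left) in Nr6a1-/- cells at d4, in percent. Black ticks give the shares without wildtype replicate 2 and dashed lines the shares among all genes tested (9.70% higher and 9.18% lower); the glycolysis and mesoderm bars reach far to the right, the endoderm, trunk Hox and lateral mesoderm bars far to the left, and the pluripotency bar shrinks to its tick.

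Hox genes were grouped by their place in the cluster, and differences between the groups were not tested. Of 13 anterior genes (paralogue groups 1 to 5) 3 were higher and 0 lower (median 0.27), but 1 was higher without wildtype replicate 1 or 2 (median 0.15 without the latter) or without Nr6a1-/- replicate 2. Of 11 trunk genes (groups 6 to 9) 8 were lower and 0 higher (median -1.03), and again 8 lower without wildtype replicate 2. Hoxb9 measured 92.4, 82.6 and 92.2 CPM in the wildtype and 30.8, 35.8 and 34.9 CPM in the Nr6a1-/- libraries (-1.39). Hoxd9 measured 7.41, 9.95 and 10.2 CPM in the wildtype and 2.17, 3.87 and 4.69 CPM in the Nr6a1-/- libraries (-1.38). Trunk genes of all 4 clusters were thus among the lower genes, while Hoxb7 (41.8, 42.5 and 42.3 CPM in the wildtype and 52.4, 53.7 and 55.4 CPM in the Nr6a1-/- libraries, 0.35, FDR = 0.0925) and Hoxb8 (47.95, 39.2 and 35.1 CPM in the wildtype and 21.2, 33.9 and 42.6 CPM in the Nr6a1-/- libraries, -0.31, FDR = 0.285) were not called. Of 10 posterior genes (groups 10 to 13) Hoxb13 was called, and the summed level of the 10 was 9.39 to 12.6 CPM in wildtype and 30.3 to 36.3 CPM in Nr6a1-/- libraries. Hoxb13 made up most of the Nr6a1-/- sum, with a mean of 21.6 CPM against 0.667 CPM in wildtype libraries. In the fit of the 6 d4 libraries alone only Hoxb13 passed the filter on low counts, so the lack of a call says little about the other posterior genes.

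Wnt ligands and Wnt feedback genes were compared because all cells received a Wnt agonist. Of 9 ligands tested 5 were higher and 1 lower, and 4 and 1 without wildtype replicate 2. Besides Wnt7a, Wnt8a and Wnt3a, Wnt6, a ligand of surface ectoderm, was higher (10.9, 8.01 and 9.01 CPM in the wildtype and 24.7, 27.1 and 18.7 CPM in the Nr6a1-/- libraries, 1.35), and Wnt8b was lower, with 47 counts over the wildtype and 1 over the Nr6a1-/- libraries. Of 17 target and feedback genes 4 were higher and 5 lower (median 0.16). Without wildtype replicate 2 the numbers were 3 and 5 (median -0.028), and without Nr6a1-/- replicate 3 the median was -0.057. Axin2, the most used readout of the pathway, did not pass the test (156, 137 and 151 CPM in the wildtype and 153, 130.1 and 154 CPM in the Nr6a1-/- libraries, -0.016, SE 0.10, FDR = 0.9799). The secreted inhibitor Dkk1 measured 40.5, 32.3 and 36.3 CPM in the wildtype and 3.47, 5.32 and 4.26 CPM in the Nr6a1-/- libraries (-3.05, FDR = 1.06e-14). The intracellular inhibitor Nkd1, on chromosome 8, measured 130.3, 125 and 148 CPM in the wildtype and 55.9, 83.2 and 75.8 CPM in the Nr6a1-/- libraries (-0.91). Lef1, a nuclear mediator of the pathway, was higher (262, 250.3 and 299.9 CPM in the wildtype and 351, 373 and 409 CPM in the Nr6a1-/- libraries, 0.48).

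FGF and ERK genes moved in both directions. Of 23 tested 10 were higher and 6 lower (median 0.38), and 10 and 5 without wildtype replicate 2. The ligand Fgf8, the main FGF of the tailbud, measured 149.5, 121 and 138 CPM in the wildtype and 71.04, 52.7 and 78.4 CPM in the Nr6a1-/- libraries (-1.005). Fgf9 measured 34.9, 32.3 and 41.7 CPM in the wildtype and 10.8, 12.6 and 13.2 CPM in the Nr6a1-/- libraries (-1.57). In contrast Fgf4 measured 12.6, 21.3 and 15.01 CPM in the wildtype and 81.9, 84.2 and 107 CPM in the Nr6a1-/- libraries (2.45). Fgf15 measured 15.3, 12.2 and 17.1 CPM in the wildtype and 55.9, 71.6 and 66.04 CPM in the Nr6a1-/- libraries (2.12), and Fgf3 was also higher (0.63). Of the feedback inhibitors that ERK activity induces, those higher included Spry4 at 14.4, 12.7 and 13.2 CPM in the wildtype and 32.5, 38.7 and 44.7 CPM in the Nr6a1-/- libraries (1.53), Spry2 at 0.90 and Dusp6 at 1.02 on the log2 scale, as was the ETS factor Etv4 (1.19). The immediate early genes Egr1 (46.6, 45.6 and 46.2 CPM in the wildtype and 22.1, 28.1 and 18.3 CPM in the Nr6a1-/- libraries, -1.02) and Fos (-1.28) were lower.

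**Figure D4:**
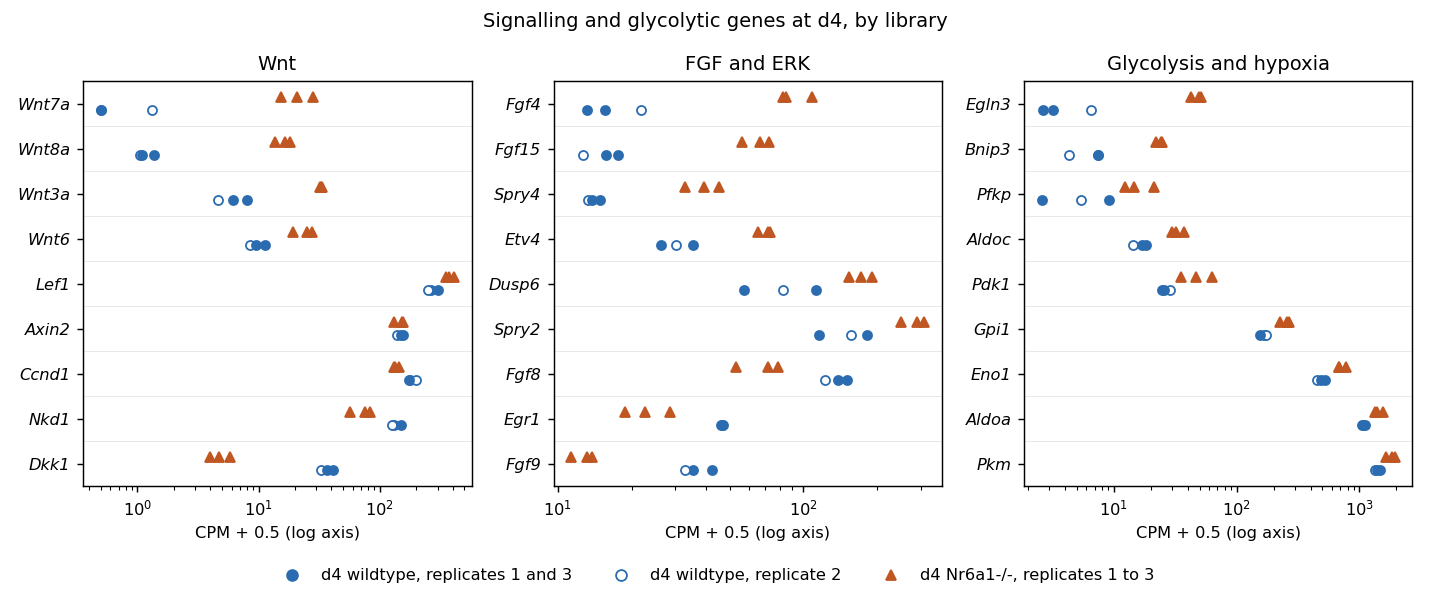
CPM at d4 in each library, on a log axis after adding 0.5, for 9 genes each of the Wnt, FGF and ERK, and glycolysis and hypoxia lists. Circles are wildtype libraries (open, replicate 2) and triangles Nr6a1-/- libraries. The genotypes overlap for Axin2, and ligands such as Fgf4 and Fgf8 lie apart in opposite directions. The 9 genes of the glycolysis and hypoxia list were picked among those called higher, so they lie to the right in Nr6a1-/- cells by that choice.

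Of 18 genes of the BMP and TGF-beta family 1 was higher and 6 were lower, 4 without wildtype replicate 2. Follistatin (Fst), a secreted antagonist of activins and of Gdf11, was the higher gene (5.23, 7.46 and 9.31 CPM in the wildtype and 59.3, 53.7 and 74.6 CPM in the Nr6a1-/- libraries, 3.05, FDR = 2.00e-17). Id3, a target of BMP signals, measured 200.1, 177 and 194 CPM in the wildtype and 140.3, 73.5 and 83.5 CPM in the Nr6a1-/- libraries (-0.93), and the inhibitors Smad7 (-2.11) and Skil (-0.94), which TGF-beta signals induce, were lower, while Id1 (-0.33, FDR = 0.204) and Id2 (0.061, FDR = 0.796) were not called. In the Notch and clock list 6 of 16 were higher and 4 lower, but 2 higher without wildtype replicate 2. Hes1, a general Notch target, was lower (191, 186 and 175 CPM in the wildtype and 126, 102 and 99.3 CPM in the Nr6a1-/- libraries, -0.76), and Lfng, a glycosyltransferase of the clock, was higher (11.8, 8.29 and 12.6 CPM in the wildtype and 22.5, 21.8 and 24.3 CPM in the Nr6a1-/- libraries, 1.08).

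Retinoid genes were higher or not called. Of 15 tested 7 were higher and 0 lower (median 0.33), and 6 and 1 without wildtype replicate 2. Besides Aldh1a2, Dhrs3, which turns retinal back to retinol, measured 28.8, 27.6 and 35.7 CPM in the wildtype and 102, 147 and 133 CPM in the Nr6a1-/- libraries (2.04). Crabp2 (0.89), a carrier of retinoic acid, and Stra6 (0.78), a retinol transporter, were also higher. Cyp26a1, which degrades retinoic acid in the tailbud, measured 23.5, 24.6 and 27.3 CPM in the wildtype and 20.8, 38.2 and 27.3 CPM in the Nr6a1-/- libraries and was not called (0.18, FDR = 0.555). The receptors Rara (0.090), Rarg (-0.17) and Rxra (-0.20) were not called, whereas Rxrg was higher (1.31, 2.21 and 0.6004 CPM in the wildtype and 4.33, 7.74 and 8.52 CPM in the Nr6a1-/- libraries, 2.24).

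Genes of glycolysis and the hypoxia response were higher or not called, with 18 of 24 higher and 0 lower (median 0.53), against 9.70% of all genes called higher. The 6 not called had log2 fold changes from -0.64 to 0.80. The number higher was 14 without wildtype replicate 2 and 11 without Nr6a1-/- replicate 1, the fewest of the 6 fits that leave out a library. Enzymes of the pathway differed by a small amount at a high level, as shown by 3 of them. Pkm, pyruvate kinase, measured 1466, 1334 and 1396 CPM in the wildtype and 1937, 1657 and 1831 CPM in the Nr6a1-/- libraries (0.37). Eno1, enolase, measured 528, 451 and 490.2 CPM in the wildtype and 679, 683 and 769.9 CPM in the Nr6a1-/- libraries (0.54). Gpi1, glucose phosphate isomerase, measured 166, 173 and 156 CPM in the wildtype and 255, 226 and 266 CPM in the Nr6a1-/- libraries (0.59). None of these overlapped between genotypes. Larger differences were those of Pfkp, a phosphofructokinase (8.72, 4.97 and 2.101 CPM in the wildtype and 20.8, 14.03 and 11.9 CPM in the Nr6a1-/- libraries, 1.65), and Pdk1, which keeps pyruvate from mitochondria (0.89). Bnip3, a mitophagy receptor, measured 6.97, 3.87 and 6.904 CPM in the wildtype and 21.7, 23.7 and 24.3 CPM in the Nr6a1-/- libraries (1.998). The letters ACGTG, the core bound by hypoxia-inducible factors, were searched on either strand of the RefSeq promoter windows. At least 1 window held them in 15 of 22 list genes with a window (68.2%). The share of all single windows, 19.6%, is not counted by gene and is not a like measure. Since the letters CACGTG hold the core on both strands, matches include E-boxes, the sites of other factors. Counted by gene, 27.8% of the higher and 29.3% of the lower genes held the core, about as often as genes not called (30.4%). The 3 windows shown have the core, or its reverse complement, in capitals, and belong to list genes that were called in every fit that left out a library.
Egln3, chr12:54204089-54204113, minus strand: tgcatctcagACGTGagatccaggt
Aldoc, chr11:78323090-78323114, plus strand: cccagggagtCACGTagctctgcgg
Bnip3, chr7:138909599-138909623, minus strand: cacgcgccgcACGTGccacacgctc
Aldoc, an aldolase, stood at 17.9, 13.8 and 16.5 CPM in the wildtype and 31.6, 29.5 and 37.1 CPM in the Nr6a1-/- libraries (1.04).

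Counts of called genes of mitochondrial respiration and translation changed with the library left out. Of 36 oxidative phosphorylation genes 7 were higher and 2 lower, but 4 higher without wildtype replicate 2 or 3, and 3 higher and 10 lower without Nr6a1-/- replicate 1. The 2 lower genes were Cox4i1, on chromosome 8 (-0.60), and Cox5a (-0.33), both subunits of cytochrome oxidase and both called whichever library was left out. Of 53 cytosolic ribosomal protein genes 11 were lower and 0 higher (median -0.18). This list turned on Nr6a1-/- replicate 1. Without it 46 were lower (median -0.41), without Nr6a1-/- replicate 2 or 3 only 1 was, and without wildtype replicate 1 there were 6. The summed level in Nr6a1-/- libraries, 92796 to 137593 CPM, spanned that of wildtype libraries, 119149 to 124363 CPM. Of 24 cholesterol synthesis genes 7 were lower and 1 higher, 5 and 1 without wildtype replicate 2 and 4 and 0 without Nr6a1-/- replicate 3, with Mvd on chromosome 8 (107, 102 and 115 CPM in the wildtype and 61.5, 74.5 and 61.4 CPM in the Nr6a1-/- libraries, -0.72) the lower gene farthest from 0 among those called in every fit that left out a library.

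Targets of p53 were mostly lower where called. Of 22 tested 12 were lower and 2 higher (median -0.57), and 10 and 2 without wildtype replicate 2. Ccng1, an atypical cyclin, measured 291, 283 and 274 CPM in the wildtype and 163, 142 and 135 CPM in the Nr6a1-/- libraries (-0.95). The anti-proliferative gene Btg2 measured 112, 98.6 and 110.5 CPM in the wildtype and 55.4, 43.5 and 58.8 CPM in the Nr6a1-/- libraries (-1.01). Mdm2, the ligase that degrades p53, stood at 77.6, 74.6 and 73.5 CPM in the wildtype and 45.5, 46.4 and 47.3 CPM in the Nr6a1-/- libraries (-0.69). The apoptosis gene Pmaip1 (Noxa) and the membrane-associated Phlda3 went the other way (0.95 and 0.75). Cdkn1a, the best known target, differed by -0.32, a call lost without wildtype replicate 1 or Nr6a1-/- replicate 2 or 3. Of 36 cell cycle genes 7 were higher and 8 lower, but 4 and 4 without Nr6a1-/- replicate 2, 4 and 7 without wildtype replicate 3, 6 and 5 without wildtype replicate 2, and 5 and 5 without Nr6a1-/- replicate 3. Ccnd2 and Ccnd1 (177, 199 and 175 CPM in the wildtype and 133, 129.7 and 144 CPM in the Nr6a1-/- libraries, -0.44) moved in opposite directions. So did Mycn (74.98, 111 and 99.1 CPM in the wildtype and 183, 186 and 169 CPM in the Nr6a1-/- libraries, 0.90) and Myc (-0.87). The cell cycle inhibitors Cdkn1c (72.4, 74.6 and 63.6 CPM in the wildtype and 18.6, 28.5 and 28.97 CPM in the Nr6a1-/- libraries, -1.47) and Cdkn2a (-2.57) were lower.

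Imprinted genes moved both ways, with 6 of 29 higher and 7 lower (median -0.21), 5 and 5 without wildtype replicate 2 (median -0.059), and 5 and 4 without Nr6a1-/- replicate 3 (median -0.12). Those higher included the neighbours Peg3 (289, 279 and 261 CPM in the wildtype and 878, 837 and 639.5 CPM in the Nr6a1-/- libraries, 1.51) and Usp29 (1.69). Dlk1, a Delta-like factor, was also higher (4.36, 4.42 and 4.503 CPM in the wildtype and 22.1, 18.9 and 19.6 CPM in the Nr6a1-/- libraries, 2.18). Those lower included H19, Cdkn1c, Phlda2 at 438, 390.1 and 446 CPM in the wildtype and 259, 289.8 and 217 CPM in the Nr6a1-/- libraries and Nap1l5, with 64 counts over the wildtype and 2 over the Nr6a1-/- libraries. Of 13 heterochronic and RNA-binding genes 4 were higher by small amounts, but 1 without wildtype replicate 2 or 3, 2 without Nr6a1-/- replicate 2 and 0 without Nr6a1-/- replicate 3, and Lin28a, which blocks let-7 maturation, measured 195, 220.5 and 198 CPM in the wildtype and 219, 275 and 291 CPM in the Nr6a1-/- libraries (0.35, a call lost without Nr6a1-/- replicate 3). Of 22 genes of DNA methylation and Polycomb 3 were higher and 3 lower, where 9.70% and 9.18% of all genes were, and 5 and 0 without wildtype replicate 2. Dnmt3b, a de novo methyltransferase of the epiblast, depended on this library, at 71.1, 516 and 68.7 CPM in wildtype and 80.1, 85.6 and 86.1 CPM in Nr6a1-/- libraries. Its log2 fold change went from -1.41 to 0.25 (FDR = 0.0809) without wildtype replicate 2. Jarid2, a partner of Polycomb repressive complexes, was higher (56.7, 96.4 and 46.8 CPM in the wildtype and 131, 112 and 128 CPM in the Nr6a1-/- libraries, 0.88).

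Epithelial and matrix genes were mostly lower where called. Of 24 genes of cadherins, junctions and epithelial-mesenchymal transition 6 were lower and 2 higher, 6 and 1 without wildtype replicate 2. The claudins Cldn6 (32.7, 35.1 and 26.4 CPM in the wildtype and 8.23, 5.32 and 6.82 CPM in the Nr6a1-/- libraries, -2.19) and Cldn7 (-3.01), proteins of tight junctions, were lower. So were the keratins Krt8 (-1.75) and Krt18 (85.01, 86.5 and 95.5 CPM in the wildtype and 30.3, 26.6 and 25.99 CPM in the Nr6a1-/- libraries, -1.69). In contrast vimentin (Vim), the filament of mesenchyme and neural progenitors, was higher (80.6, 74.9 and 79.3 CPM in the wildtype and 197, 172 and 206 CPM in the Nr6a1-/- libraries, 1.30). Of 20 basement membrane and matrix genes 6 were lower and 1 higher, 5 and 1 without wildtype replicate 2. None was higher without wildtype replicate 1 or 3 or Nr6a1-/- replicate 2. Sparc, a collagen-binding protein, measured 191, 155 and 169 CPM in the wildtype and 33.4, 35.8 and 27.7 CPM in the Nr6a1-/- libraries (-2.41). The collagen IV gene Col4a1, on chromosome 8, measured 265, 183 and 262 CPM in the wildtype and 58.5, 78.9 and 67.7 CPM in the Nr6a1-/- libraries (-1.79), and its divergent neighbour Col4a2 differed by -1.73.

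Genes of cell guidance moved in both directions. Of 28 axon guidance genes 10 were higher and 5 lower, 9 and 5 without wildtype replicate 2. The class 3 semaphorins Sema3a and Sema3c (9.15, 8.84 and 15.6 CPM in the wildtype and 1.299, 0 and 0.852 CPM in the Nr6a1-/- libraries, -3.84) were lower. Their receptors Nrp1, on chromosome 8 (15.3, 11.3 and 7.505 CPM in the wildtype and 0.433, 1.94 and 0.426 CPM in the Nr6a1-/- libraries, -3.56), and Nrp2 (-0.71) were lower too. The transmembrane semaphorins Sema5a (1.74, 2.76 and 2.101 CPM in the wildtype and 5.63, 14.03 and 10.7 CPM in the Nr6a1-/- libraries, 2.12) and Sema6a (1.32) were higher. Among Eph receptors, Epha1 (2.03), Epha2 (0.86), Epha4 (0.63) and Ephb4 (1.48) were higher and Epha5 lower. In the apelin and Cxcl12 list 2 of 6 were higher and 3 lower, and 2 and 2 when any library other than wildtype replicate 1 was left out. The receptor Aplnr measured 4.36, 4.14 and 5.403 CPM in the wildtype and 31.2, 36.3 and 49.4 CPM in the Nr6a1-/- libraries (3.06), and its ligands went apart, Apln being higher and Apela lower (-1.07, on chromosome 8, a call lost without wildtype replicate 2 or Nr6a1-/- replicate 2). The chemokine Cxcl12 was lower (10.9, 16.9 and 11.1 CPM in the wildtype and 2.17, 3.39 and 2.56 CPM in the Nr6a1-/- libraries, -2.28).

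The difference between genotypes at d4 was then set against that at d3, a day earlier, whose libraries are separate. Of the 1179 genes higher at d4, 237 (20.1%) were also higher at d3, which is 43.6% of the genes higher at d3, and 28 were lower at d3. Of the 1115 genes lower at d4, 368 (33%) were lower at d3, 48.1% of those lower at d3, and 28 were higher. Of the genes called at d4 without wildtype replicate 2, 217 of 892 (24.3%) were higher at both stages and 340 of 919 (37%) lower. At d3 10.8% of all 12149 genes were called either way, 543 of them higher and 765 lower. With Gdf11 (d4G) 7.90% of all genes were called either way, 398 of them higher and 562 lower. Of the genes higher at d4, 227 were higher at d4G too (19.3%, or 57% of those higher at d4G), and 334 of the lower genes were lower (30%, or 59.4%). Without wildtype replicate 2 these numbers were 208 (23.3%, or 52.3%) and 308 (33.5%, or 54.8%).

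To ask which differences themselves changed from d3 to d4, the change was tested. It was called for 695 genes (5.72%), upwards for 361 (2.97%) and downwards for 334 (2.75%), and for 535 without d4 wildtype replicate 2. Leaving out d4 Nr6a1-/- replicate 3 gave 443 genes, and leaving out replicate 1 gave 1157. The difference in Aldh1a2 (1.35 at d3 and 4.96 at d4, FDR of the change 2.94e-09) and Fabp7 (0.90 and 4.24, FDR 1.98e-08) grew, and that in Dkk1 (-0.073 and -3.05, FDR 7.32e-10), Sema3c (0.18 and -3.84, FDR 0.00208) and H19 (-3.05 and -6.02, FDR 0.00244, a call lost without d3 Nr6a1-/- replicate 1) moved down. Bcl11b (3.32 and 3.56, FDR 0.907) and Sox17 (-4.05 and -3.34, FDR 0.653) had no called change. Meox1 and Wnt7a were at the detection limit in both genotypes at d3, where Meox1 averaged 0 CPM in wildtype and 0.134 CPM in Nr6a1-/- libraries and Wnt7a 0.294 and 0.143 CPM, so that no fold is given for that stage. Some differences turned over. The retinoic acid carrier Crabp1 was lower at d3 (-1.79, FDR = 2.13e-15) and higher at d4 (728, 578 and 743 CPM in the wildtype and 917, 845 and 809 CPM in the Nr6a1-/- libraries, 0.33, a call lost without wildtype replicate 2), and Id3 higher at d3 (0.72, FDR = 0.00142) and lower at d4.

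**Figure D5:**
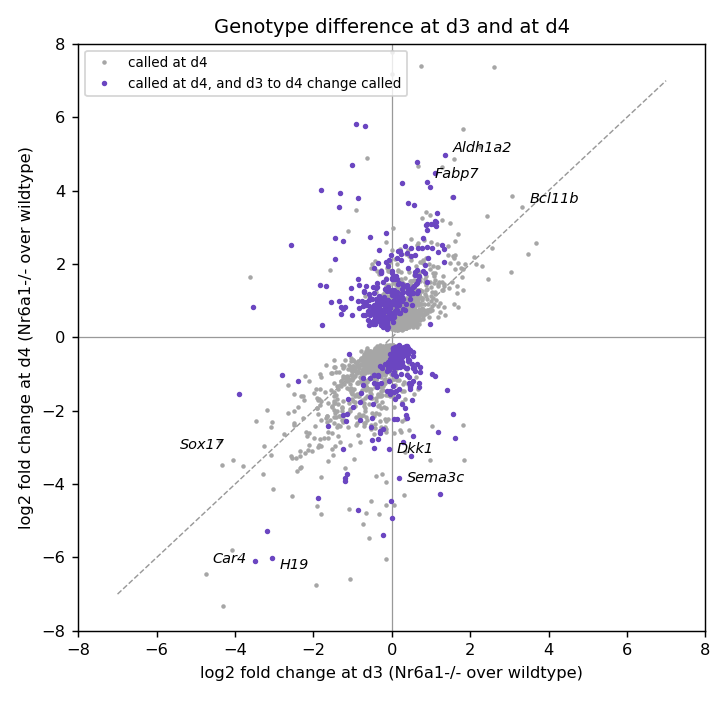
log2 fold change of Nr6a1-/- over wildtype at d3 (x axis) and at d4 (y axis) for the 2294 genes called at d4, of which 2 lie outside the axes. Purple points also passed the test of the change from d3 to d4 and lie away from the dashed line of equal differences, as Aldh1a2 and Dkk1 do, whereas Bcl11b and Sox17 lie close to it; values at d3 of genes with few counts there are uncertain.

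Genes that wildtype cells regulate on the way to d3 were also asked about, since those libraries do not enter the d4 fold changes. They do share the filter and the estimate of the spread with the d4 test. A gene with many counts and little spread is easier to call in both, and the part this plays was not tested. Of 2381 genes that rose in wildtype cells from d2 to d3, 14.9% were higher at d4 and 14.2% lower, against 8.21% and 6.63% of the 7602 genes that did neither. Without wildtype replicate 2 the shares of genes that rose were 10.6% and 14.3%, and those of genes that did neither 5.95% and 5.48%. Of 2166 genes that fell, 9.23% were higher and 12.6% lower, and without wildtype replicate 2 these shares were 8.96% and 7.76%.

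By position, chromosome 8 held 195 lower and 24 higher genes of 653 tested. Its share called lower, 29.9%, stood against the 9.18% of all genes, and its median log2 fold change was -0.29. Without wildtype replicate 2 it held 168 lower and 20 higher genes of 648. There were 18 runs of at least 4 neighbouring tested genes called in the same direction, 10 higher and 8 lower, and 6 of the 8 lower runs lie on chromosome 8, among them Irx3, Crnde, Irx5 and Mmp2 (91798525 to 92853420) and Irs2, Col4a1, Col4a2, Naxd and Cars2 (10984681 to 11550783). A higher run on chromosome 9 holds Mindy2, Adam10, Aldh1a2 and Polr2m (70599014 to 71485935), of which Aldh1a2 differed most, while the call of Adam10 was lost without wildtype replicate 1 or 2 and that of Mindy2 without any 1 library other than wildtype replicate 3. The call of Naxd was lost without any wildtype library or Nr6a1-/- replicate 3, that of Cars2 without wildtype replicate 2 or Nr6a1-/- replicate 2, and that of Hcfc1r1 without wildtype replicate 2 or Nr6a1-/- replicate 3. Of the 77 genes in runs, 59 kept the call without wildtype replicate 2. A lower run on chromosome 17 holds Hcfc1r1, Tnfrsf12a and the claudin genes Cldn6 and Cldn9 (23673596 to 23684026).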

How the data were processed

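The deposited values are counts per gene, which the authors made from 3′ poly(A)-primed RNAseq libraries that carry molecular identifiers. Per the submitters' processing notes reads were aligned with STAR to mm10 and edgeR was used. The counter, the use of strand and whether identifiers were collapsed are not given in the sources used here, so intervals and floors cover counting error only. The deposited tables of the authors' own comparisons, which hold fold changes, p-values and CPM, were not used. The number of unmatched columns was 0.

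From the counts, a gene was tested when more than 10 counts and more than 2 CPM were present in 2 libraries of a group, which kept at least 99.2% of the counts of each library. TMM factors, a model of all 30 libraries with 1 mean per stage and genotype (20 residual degrees of freedom), and edgeR's quasi-likelihood F-test (version 4.0.16, R 4.3.3) with Benjamini-Hochberg adjustment over all 12149 genes gave FDR values, called below 0.05. The change from d3 to d4 is the interaction of stage and genotype. Alternatives used DESeq2 1.42.0, other normalizations and filters, thinned counts, a fold threshold, fits of fewer libraries, libraries left out in turn and a replicate block. The scripts were tested on simulated data.

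Genes were named by rule: the 12 with the largest change in each direction that were called in every one of 3 fits, did not overlap and reached 20 CPM, the 6 most abundant of those with a log2 fold change of at least 1 in size, and examples from gene lists, called members with the largest differences and members of key role first. Nr6a1, the genes with a half-site and the genes in chromosomal runs were named outside this rule, after their values were seen. Members and lists were chosen with earlier results of these data known. Gene positions are from GENCODE, on GRCm38, by which 98.8% of tested genes were placed. Promoter windows are from RefSeq, GRCm38.p6. Rows with date-like symbols (26) cannot be named. Results for some genes that these rules select are not reported here.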

Additional observations from a re-analysis of the deposited data

Results flagged for a closer look

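The genotype difference changed between d3 and d4 for 695 genes, by the edgeR quasi-likelihood test of that change itself. Of the genes named in the text, 79 were among them, 42 with a change towards higher and 37 towards lower expression in Nr6a1-/- cells at d4 (FDR 6.76e-14 to 0.0475). Values are the change in the log2 fold change of Nr6a1-/- over wildtype from d3 to d4. The changes upwards, from the one farthest from 0, were in Wnt7a (6.72), Mesp1 (5.73), Ntm (4.67), Kcna2 (4.14), Aldh1a2 (3.61), Wnt8a (3.39), Fabp7 (3.34), Egln3 (3.04), Dhrs3 (2.39), Wnt6 (2.39), Id2 (2.36), Sema5a (2.19), Aplnr (2.19) and Crabp1 (2.12). Smaller ones upwards were in Stra6 (2.03), Fgf4 (1.97), Fst (1.93), Fgf15 (1.89), Ncam1 (1.77), Nkx1-2 (1.68), Adam10 (1.62), Pfkp (1.62), Inpp4a (1.61), Wnt3a (1.56), Aldoc (1.55), Gpc3 (1.46), Mindy2 (1.42) and Pdk1 (1.34). The smallest upwards were in Cyp26a1 (1.25), Ccnd2 (1.15), Dusp6 (1.13), Nes (1.08), Jarid2 (1.02), Phlda3 (0.97), Spry2 (0.95), Psap (0.88), Grsf1 (0.85), Marcks (0.84), Vim (0.82), Peg3 (0.61), Gpi1 (0.60) and Lhpp (0.58).

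The changes downwards, in the same order, were in Sema3c (-4.01), Dkk1 (-2.98), H19 (-2.97), Flt1 (-2.72), Irx3 (-2.65), Car4 (-2.61), Foxa2 (-2.58), Cldn7 (-2.54), Gpx2 (-2.48), Utf1 (-2.31), Epha5 (-2.27), Apela (-2.16) and Dpp4 (-2.08). They were followed by Dnmt3b (-1.87), Atp1b1 (-1.80), Cldn6 (-1.68), Id3 (-1.65), Hoxb9 (-1.58), Cdkn1c (-1.43), Egr1 (-1.41), Cdx4 (-1.37), Phlda2 (-1.37), Hoxb8 (-1.12), Rhox5 (-1.12), Nefl (-1.07) and Mt1 (-0.96). The smallest downwards were in Krt8 (-0.93), Mt2 (-0.88), Nrp2 (-0.85), Nkd1 (-0.80), Sparc (-0.78), Cited1 (-0.67), Ccnd1 (-0.59), Krt18 (-0.56), Btg2 (-0.56), Slc25a4 (-0.55) and Cd63 (-0.37).

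For 18 of the 79 genes the call was lost when 1 of the 12 libraries of d3 and d4 was left out, namely for Aldoc, Btg2, Cd63, Dnmt3b, Dpp4, Dusp6, Foxa2, H19, Krt18, Lhpp, Marcks, Mesp1, Mindy2, Pfkp, Psap, Spry2, Utf1 and Wnt7a. The value for Wnt7a is a fitted value that rests on counts near 0 in both genotypes at d3. No group had the 4 samples that a test for single outlying libraries needs.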

How the results depend on the processing

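The number of genes called at d4 was 2294. It was 532 when tested against a 1.5-fold change (glmTreat), 1398 in a fit of the 6 d4 libraries alone, 980 in that fit without wildtype replicate 2, and 1431 in that fit with a replicate block. With 1 d4 library left out in turn it ranged from 1487 (without Nr6a1-/- replicate 3) to 2625 (without Nr6a1-/- replicate 1). The fits of 6 libraries estimate the spread from fewer samples. The number of genes whose difference changed from d3 to d4 was 695. It was 112 against a 1.5-fold change, 440 in a fit of the 12 d3 and d4 libraries, and 443 (without d4 Nr6a1-/- replicate 3) to 1157 (without d4 Nr6a1-/- replicate 1) with 1 library left out. For the departures without a stated construction the cause was not tested. Other normalizations, the looser filter, thinning to the smallest total and DESeq2 kept both counts within 1.5-fold. Same-numbered replicates of the genotypes did not deviate together (correlations of -0.045, -0.023 and -0.049 over 8112 genes). No wildtype library correlated best with the Nr6a1-/- library of its own number. So few libraries cannot show whether same-numbered replicates shared a culture or batch. A replicate block within each stage gave 2145 genes at d4 and 634 for the change.

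Of the 160 genes named and called at d4, 109 kept direction and call in all 16 alternatives. The call of Dnmt3b was lost without wildtype replicate 2 and its log2 fold change turned positive, at 0.25 in the fit of all stages (FDR = 0.0809) and 0.247 in the fit of d4 libraries (FDR = 0.329). It ranged from -1.86 to 0.25 over the libraries left out. Testing against a 1.5-fold change ended 49 calls and leaving out wildtype replicate 2 ended 11 in the same direction. Depth limited genes near 1 CPM, where a few counts decide a fold.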
